A study of Rattus norvegicus with 13 samples.

Results

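The anti-apoptotic members of the Bcl-2 family were taken as the probes annotated Bcl2, Bcl2l1, Bcl2l2, Mcl1, Bcl2a1d or Bcl2l10, which gave 6 of the 96 gene probes of an apoptosis array, each gene with 1 probe. They were measured in total RNA of the coronary arteries of the septum, taken from rats of the inbred F344 strain, which is much used in research on ageing. The aged group, 6 arrays, came from rats of 26 months, and the labels add that more endothelial cell death had been found in these vessels by a TUNEL assay and by a test of DNA fragmentation. The young group, 7 arrays, came from rats of 3 months. No treatment, genotype or sex is given in the labels, and they do not tie arrays to animals; the tests therefore take in only the variation from array to array, some of which may be technical. All values are ratios to beta-actin on the same array.

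Members of this family hold mitochondria intact by binding the effectors that would open the outer membrane, and by capturing the BH3-only proteins that set those effectors off. In vessel walls they are studied for the survival of endothelial and smooth muscle cells. Bcl2 is the founding member, and Bcl2l1 encodes Bcl-xL, its close relative. Bcl2l2 encodes Bcl-w. Mcl1 is a short-lived protein that is renewed constantly. Bcl2a1d belongs to the A1 genes, which are induced by inflammatory signals, and Bcl2l10 is a more divergent member, known chiefly from germ cells, whose role as an inhibitor is less settled. The symbol Bcl2a1d is that of a mouse gene with near-identical copies, which a probe may not tell apart. It was not among the rat symbols used here, where it is listed as a synonym, while the other 5 symbols were. None of the 6 gene IDs of the annotation (0 matched) occurred in the rat gene table, so the species the probes were designed on is unsettled, and how well the probes match rat transcripts was not tested.

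Bcl2 gave the highest signal of the family on 13 of 13 arrays. On the aged arrays its ratio to beta-actin was 0.94 at the lowest, 1.72 at the median and 2.32 at the highest. On the young arrays the lowest was 0.13, the median 0.97 and the highest 2.76. The young arrays therefore held both the lowest and the highest Bcl2 ratio, and the age groups overlapped. The 2 low values, 0.13 and 0.16, belonged to young replicates 1 and 2, and the next young array stood at 0.93. The next member on the same array was exceeded 2.66-fold to 7.45-fold on the aged arrays (median 5.38) and 2-fold to 6.93-fold on the young arrays (median 4.18). Even the smallest of these gaps, 0.16 for Bcl2 against 0.08 for Bcl2a1d on young replicate 2, was larger than the rounding step of 0.01. Among all gene probes with a value, Bcl2 ranked at places 2 to 8 on 11 arrays, at place 12 of 60 on young replicate 2 and at place 16 of 58 on young replicate 1. The order is one of probe signals. Probes differ in sequence and labelling, so it is not an order of transcript numbers.

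**Figure D1:**
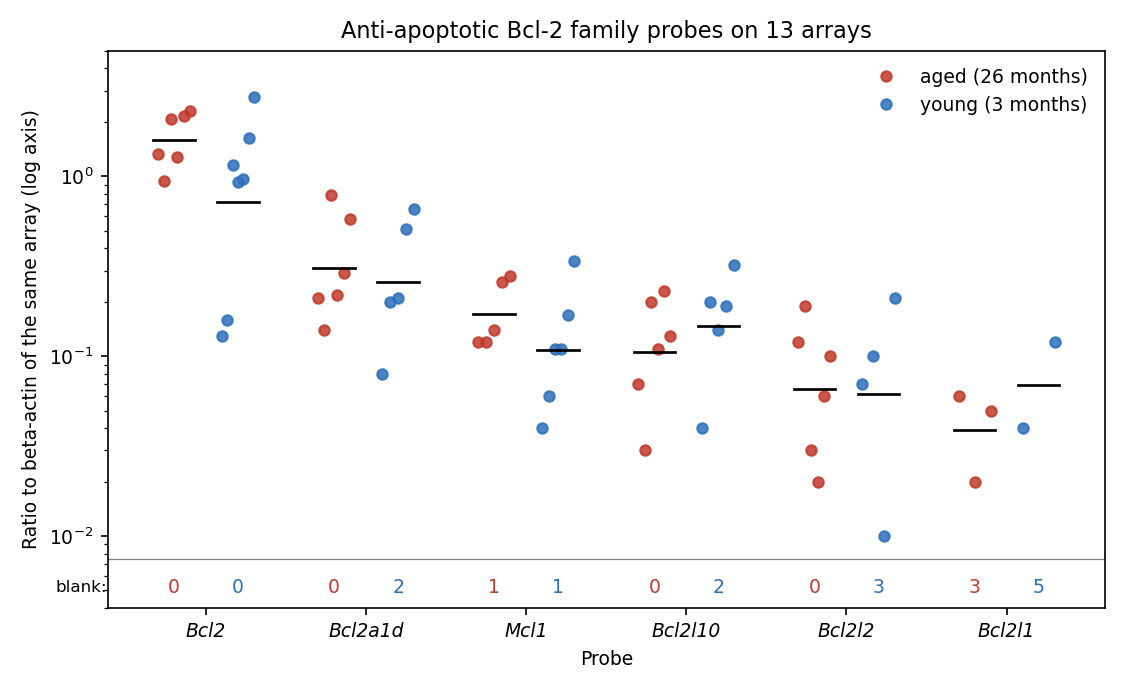
Ratio to beta-actin (log axis) of the 6 probes on 6 aged (red) and 7 young (blue) arrays, each point an array, with bars at the geometric mean and the number of blank arrays at the foot. Bcl2 lies above the other members in both age groups, and its 2 lowest young points, 0.13 and 0.16, are apart from the other young arrays, at 0.93 or more.

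Below Bcl2 the order held for Bcl2a1d and was looser for the others. Bcl2a1d was second on 10 of the 11 arrays where it had a value, 5 aged and 5 young, and fell behind Bcl2l2 on aged replicate 2. It exceeded Mcl1 on 9 of 9 arrays with both values, Bcl2l10 on 10 of 10 and Bcl2l2 on 9 of 10. On that array Bcl2l2 stood at 0.19 and Bcl2a1d at 0.14. Mcl1 and Bcl2l10 did not keep a fixed order: Mcl1 was the higher on 4 of 5 aged and 2 of 4 young arrays. Bcl2l2 was below Bcl2l10 on 7 of 10 arrays and below Mcl1 on 6 of 8, with 1 tie at 0.12 on aged replicate 1. Bcl2l1, where it had a value, was above no other member on any array and tied with none but Bcl2l2, on aged replicate 4 at 0.02 each. Since the order is read within an array, neither the beta-actin denominator nor any centring can change it.

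**Figure D2:**
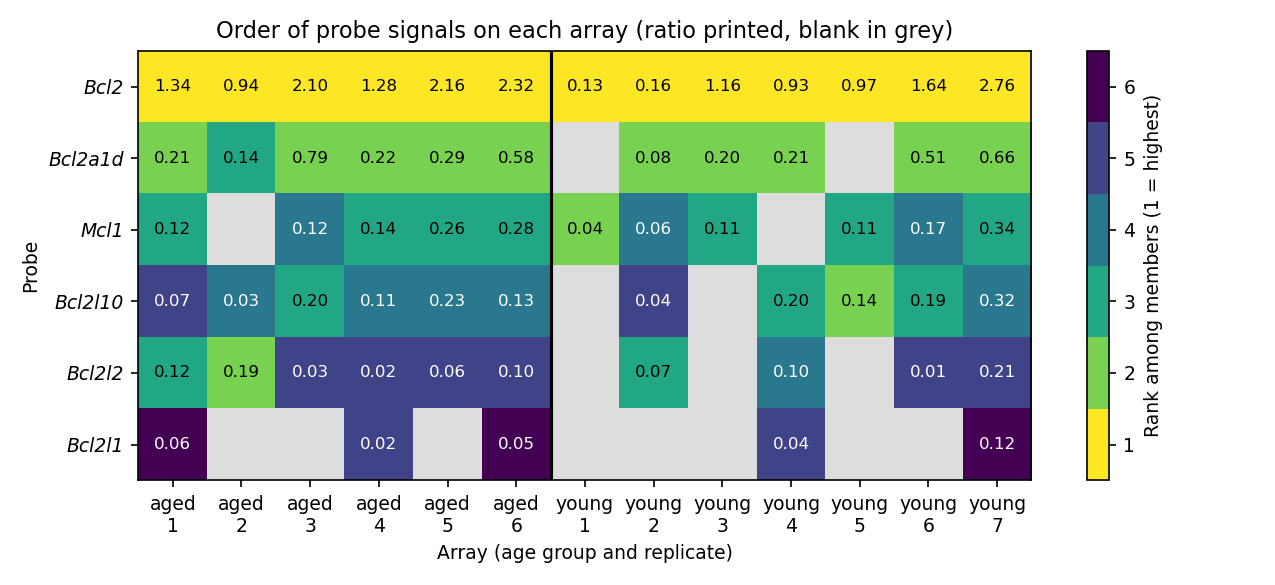
Rank of each probe among the members with a value on an array (colour, 1 is the highest), with the ratio to beta-actin printed and blanks in grey; columns are the 6 aged and 7 young arrays. Bcl2 is first in every column, Bcl2a1d second in 10, and the lower rows change places from array to array.

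The members differed in how often they had a value. Bcl2 was measured on all 13 arrays. Mcl1 had a value on 5 aged and 6 young arrays, Bcl2a1d and Bcl2l10 on 6 aged and 5 young, and Bcl2l2 on 6 aged and 4 young. Bcl2l1 had a value on 3 aged and 2 young arrays and was blank on the other 8. Over the 6 members, 32 of 36 cells (88.9%) had a value on aged arrays and 29 of 42 (69.0%) on young arrays, beside 69.3% and 62.9% over all gene probes. The members measured per array ran from 4 to 6 in the aged and from 2 to 6 in the young group, with the fewest on young replicate 1, where Bcl2 and Mcl1 alone had values. No member passed the test of the number of arrays with a value by age (Fisher's exact test, two-sided; smallest p = 0.192, for Bcl2l2, and adjusted p = 1 for each over 96 probes). Of all 96 probes 0 passed this test (0%) after adjustment, and 2 had an unadjusted p under 0.05 (2.08%). For every member but Bcl2l1 the blanks were too few for any split by age to give an unadjusted p under 0.05. The smallest p that Fisher's exact test allows for 6 against 7 arrays is 0.00058, too large for 1 probe alone to pass over 96. The test therefore could not decide whether detection of the members differed by age. Why a spot is blank is not stated in the labels or the table.

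The comparison of ages asks whether the vessels of old rats carry more or less of these survival transcripts. None of the 5 members that could be tested passed, and 4 of them averaged higher on aged arrays on the log2 scale, beside 40 of all 70 tested probes (57.1%). In vessel RNA, fewer cells of a type and less RNA per cell cannot be told apart. Over the 70 probes, limma called 1 (1.43%, Tnf) and gave 4 an unadjusted p under 0.05 (5.71%), with 0 members among either. The median log2 difference was 0.26 over the 5 members and 0.06 over the 70 probes. No member's age groups lay apart, against 2 of the 70 probes (2.86%). The members' direction depended on the scaling and on the blanks. After each array was centred on the 15 gene probes measured on every array, 1 of 5 members was higher on aged arrays, and 13 of 70 probes were. After centring on the reference genes (Actb, Gapdh and Rpl13a) 3 of 5 and 29 of 70 were. The median difference of all tested probes moved from 0.06 to -0.69 and -0.19 with these centrings. When each blank was given 0.01, the lowest ratio in the table, 6 of 6 members and 58 of 96 probes were higher on aged arrays, with medians of 0.89 and 0.23.

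As deposited and with blanks left missing, Bcl2 had the largest difference of the tested members. Its mean ratio was 1.69 ± 0.573 on aged arrays (SD, n = 6) and 1.11 ± 0.906 on young arrays (SD, n = 7). The log2 difference was 1.16 (SE 0.63, 95% interval -0.14 to 2.45, adjusted p = 0.638 by limma), a 2.23-fold difference of geometric means. Leaving out low young values must lower this difference, and the 2 highest young arrays were only left out singly. The difference was 0.75 without young replicate 1, 0.80 without young replicate 2, and 0.23 without both (95% interval -0.76 to 1.22). Without young replicates 6 or 7, which had the highest young ratios, it was 1.36 (95% interval 0.03 to 2.69) and 1.48 (95% interval 0.23 to 2.74), with adjusted p-values of 0.588 and 0.255 by limma. On the 15-probe scale it was 0.36 (95% interval -0.55 to 1.26), with quantile normalization 0.64 and with array weights 0.65. With centring on the reference genes it was 0.92, and with centring on the array median 1.18 (95% interval -0.01 to 2.36). Bcl2 was higher on aged arrays under each of these settings, and passed under none.

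On the same basis Mcl1 had the next largest difference. On the aged arrays with a value it was 0.12, 0.12, 0.14, 0.26 and 0.28, and on the young ones the lowest was 0.04, the median 0.11 and the highest 0.34. The groups overlapped, and as for Bcl2 the low values, 0.04 and 0.06, were those of young replicates 1 and 2. The log2 difference was 0.65 (SE 0.58, 95% interval -0.55 to 1.85, adjusted p = 0.862 by limma). It was 0.36 without young replicate 1, 0.07 without young replicates 1 and 2 and 0.98 without young replicate 7 (95% interval -0.16 to 2.12). On the 15-probe scale the sign turned, to -0.22.

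Bcl2a1d, the A1 member, varied over a similar range in both age groups. Its lowest, median and highest ratios were 0.14, 0.255 and 0.79 on 6 aged arrays, and its 5 young values were 0.08, 0.20, 0.21, 0.51 and 0.66. Aged replicates 3 and 6 and young replicates 6 and 7 were high, at 0.51 or more, and the other 7 measured arrays stood at 0.29 or less. The log2 difference was 0.26 (SE 0.62, 95% interval -1.02 to 1.54, adjusted p = 0.958 by limma), and it turned to -0.35 on the 15-probe scale, to -0.16 without young replicate 2 and to -0.01 without aged replicate 3. It was 0.60 without young replicate 7, and with its 2 young blanks at 0.01 it was 1.60 (95% interval -0.28 to 3.48, adjusted p = 0.931 by limma).

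Bcl2l10 was the 1 tested member with a lower mean on aged arrays. Its lowest, median and highest ratios were 0.03, 0.12 and 0.23 on 6 aged arrays, and the 5 young values were 0.04, 0.14, 0.19, 0.20 and 0.32. The groups overlapped, with the highest value on young replicate 7. The log2 difference was -0.48 (SE 0.63, 95% interval -1.77 to 0.82, adjusted p = 0.885 by limma). It was -0.99 on the 15-probe scale (95% interval -2.03 to 0.06, adjusted p = 0.310 by limma), -0.94 without young replicate 2, -0.11 without aged replicate 2 and -0.19 without young replicate 7. With its 2 young blanks at 0.01 it turned to 0.63.

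Bcl2l2, the Bcl-w gene, had the widest relative range of the dim members. Its lowest, median and highest ratios were 0.02, 0.08 and 0.19 on 6 aged arrays, and its 4 young values were 0.01, 0.07, 0.10 and 0.21. The log2 difference was 0.09 (SE 0.78, 95% interval -1.53 to 1.71, adjusted p = 0.979 by limma). It turned to -0.79 without young replicate 6, whose ratio of 0.01 equals the rounding step, and was 0.68 without young replicate 7. With its 3 young blanks at 0.01 it was 1.22 (95% interval -0.49 to 2.93, adjusted p = 0.931 by limma). At a ratio of 0.01 the rounding alone allows an error of 50%, against 3.85% at the lowest Bcl2 ratio.

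Bcl2l1, the Bcl-xL gene, had too few values for the test. They were 0.06, 0.02 and 0.05 on aged replicates 1, 4 and 6, and 0.04 and 0.12 on young replicates 4 and 7. The values overlapped. With at least 2 values per group allowed, its log2 difference was -0.82 (95% interval -2.70 to 1.05, adjusted p = 0.857 by limma), and with its 8 blanks at 0.01 it was 0.19.

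**Figure D3:**
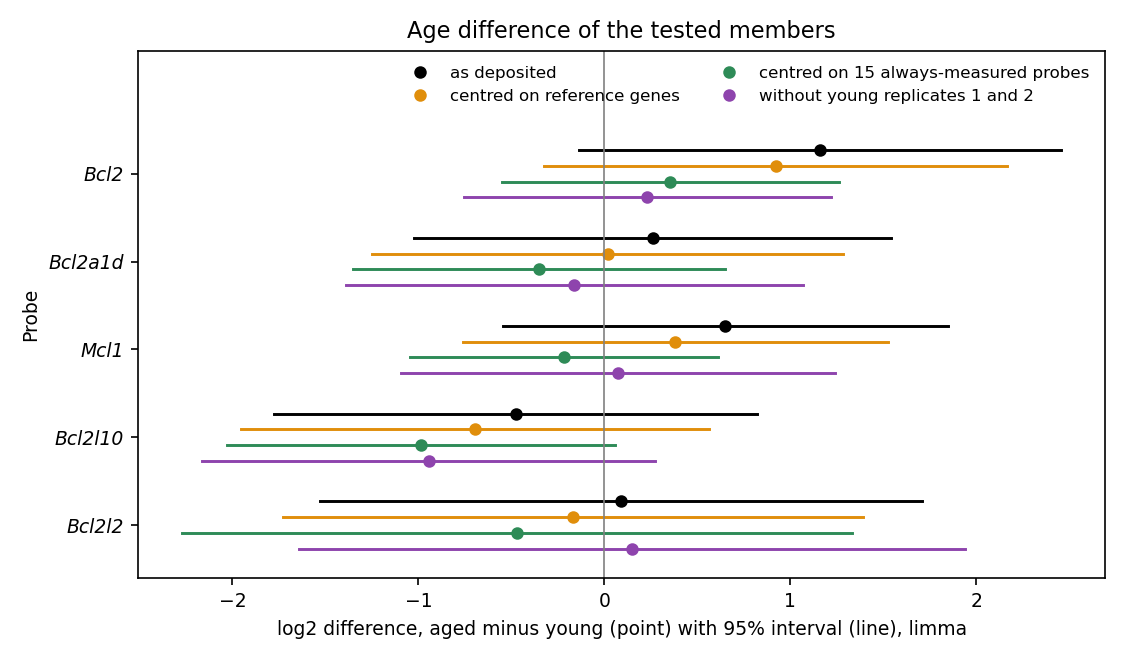
Log2 difference of each tested member, aged minus young (points), with 95% intervals from limma (lines), as deposited, with 2 centrings, and without young replicates 1 and 2. Each interval spans 0, and Bcl2 moves from 1.16 as deposited to 0.36 on the 15-probe scale and 0.23 without the 2 arrays.

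The level of the probes measured on every array moved with the Bcl2 ratio (r = 0.93 with Bcl2 left out of the level). The mean log2 ratio of these 15 probes, of which Bcl2 is 1, was 0.80 higher on aged arrays (exact permutation p = 0.051, two-sided). It was lowest on young replicates 1 and 2, at -2.50 and -1.76. Of the 15 probes, 14 were higher on aged arrays (93.3%), with a median difference of 0.85. Over all 70 tested probes 40 were higher, with a median of 0.06, so the level does not stand for all probes. The arrays had 52 to 80 gene probes with a value. Bcl2 was set against the other 14 of the 15 probes, a comparison chosen after the values were seen. On the log2 scale it stood 1.0 ± 0.28 higher on aged arrays (SD, n = 6). On young arrays it stood 0.62 ± 0.97 higher (SD, n = 7). The difference of 0.38 did not pass (exact permutation p = 0.399, two-sided). On young replicates 1 and 2 Bcl2 stood at -0.48 and -0.95 against the level of the 14 probes, whereas on the other 11 arrays it stood at 0.50 to 1.45. On these 2 arrays, picked out for their low Bcl2 ratios, Bcl2 was thus low also relative to these 14 probes. Among all probes with a value it still ranked at places 16 of 58 and 12 of 60. What sets the 2 arrays apart was not tested. The array carried 1 (Cd40, from the leukocyte list) of 27 markers listed for vessel wall, heart muscle and blood cell types, and the tissue label could not be checked.

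**Figure D4:**
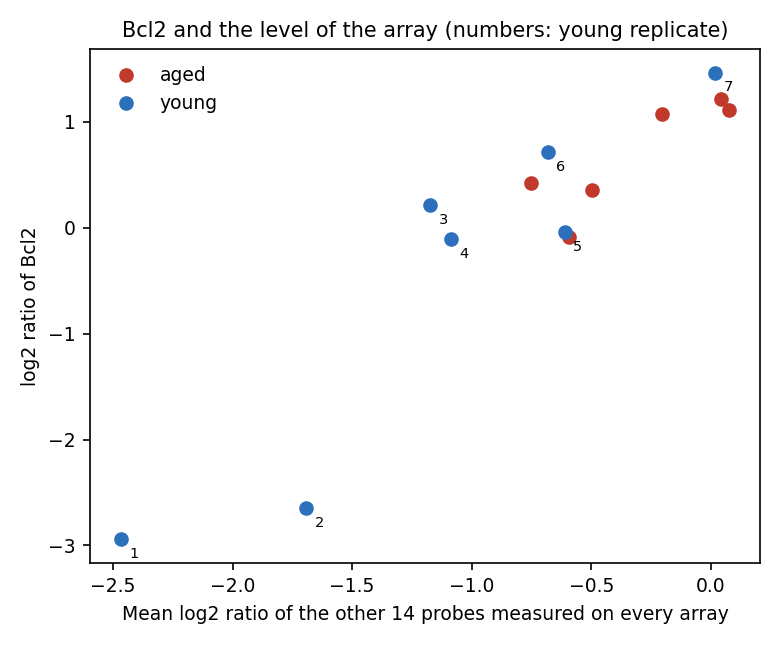
Log2 ratio of Bcl2 against the mean log2 ratio of the other 14 probes measured on every array, for 6 aged (red) and 7 young (blue) arrays, with young replicates numbered. Young replicates 1 and 2 lie at the lower left, apart from the other 11 arrays, and the aged arrays lie among the remaining young ones.

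The spread of the members was larger in young arrays for 5 of 5, beside 64.3% of the 70 tested probes. For Bcl2 the SD of the log2 ratio was 0.53 on aged and 1.67 on young arrays. The median SD over the 70 probes was 0.82 and 0.97, and 5 probes exceeded Bcl2 in the young group and 57 in the aged group. For Mcl1 the SD was 0.61 and 1.09, for Bcl2a1d 0.95 and 1.21, for Bcl2l10 1.08 and 1.13 and for Bcl2l2 1.24 and 1.87, aged and young in that order. None of these differences passed an exact permutation test on the ratio of SDs (Bcl2 p = 0.144, adjusted p = 1). The test called 0 of the 70 probes (0%) and gave 0 an unadjusted p under 0.05. Blanks leave few splits, so no member other than Bcl2 could have passed it alone after adjustment. Without young replicates 1 and 2 the young SD of Bcl2 was 0.65. After centring on the 15 probes 2 of 5 members, Bcl2 and Bcl2l2, had the larger SD on young arrays. The SDs of Bcl2 were then 0.26 and 0.91 and those of Mcl1 0.38 and 0.32, aged and young in that order.

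Ratios of Bcl2 to another member on the same array do not hold the beta-actin signal, and they were compared next. Against Bcl2l10 the aged arrays stood at 3.23 to 4.97 on the log2 scale and the young arrays at 2 to 3.11. The groups did not overlap, which was so for 2 of the 69 probes set against Bcl2 (2.9%). Young replicates 1 and 3, where Bcl2l10 was blank, are not in this comparison, and filling blanks was not tested for these ratios. The mean was 3.93 ± 0.66 on 6 aged and 2.65 ± 0.51 on 5 young arrays (SD), a difference of 1.28 (exact permutation p = 0.0043, adjusted p = 0.299 over 69 probes, two-sided). It was 1.07 to 1.42 when any 1 array was left out and 1.12 without young replicates 1 and 2, a setting added after seeing the data (exact permutation p = 0.019, adjusted p = 0.543). All 69 comparisons share the Bcl2 values. Of the 69, 62 were higher on aged arrays (89.9%) with a median of 1.08, and 22 exceeded Bcl2l10, so its difference was not large among them. Its unadjusted exact permutation p was the smallest of the 69, ahead of Pycard at 0.0087. None passed after adjustment (0%), and 4 had an unadjusted p under 0.05 (5.8%). Because of blanks, the ratios to the other members had too few splits for any of them to pass alone after adjustment. Their adjusted p-values therefore cannot decide whether these ratios differed by age.

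Relative to the other members, the Bcl2 ratios of the ages overlapped. Against Bcl2a1d they were 2.38 ± 0.57 on 6 aged and 1.89 ± 0.58 on 5 young arrays (SD), a difference of 0.49 (exact permutation p = 0.193, adjusted p = 0.596). Against Mcl1 they were 3.38 ± 0.45 on 5 aged and 2.66 ± 0.87 on 6 young arrays (SD), a difference of 0.72 (exact permutation p = 0.184, adjusted p = 0.596). On young replicates 1 and 2 Bcl2 was 3.25-fold and 2.67-fold above Mcl1, and on the other 9 arrays with both values 8.12-fold to 17.5-fold. Without these 2 arrays the Mcl1 difference was 0.17. The 2 arrays had been picked out for their low Bcl2 ratios, a choice that favours low values here. Against Bcl2l2 the difference was 0.73 (exact permutation p = 0.586, adjusted p = 0.735), and -0.16 without young replicate 2.

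**Figure D5:**
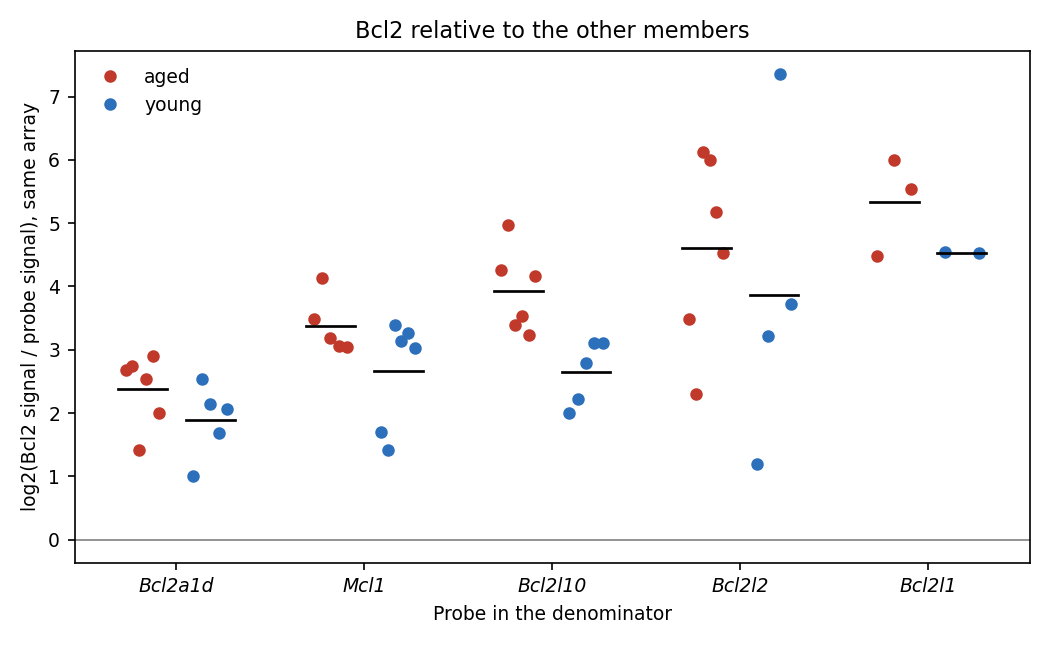
Log2 of the Bcl2 signal over the signal of each other member on the same array, for aged (red) and young (blue) arrays, with bars at the mean. The points do not overlap between the ages for Bcl2l10, with aged arrays at 3.23 or more and young arrays at 3.11 or less. They overlap for Bcl2a1d, Mcl1 and Bcl2l2. Arrays where the other member was blank, for Bcl2l10 young replicates 1 and 3, have no point.

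The probes whose log2 ratios ran most like those of each member were listed by Pearson correlation over arrays with both values, as a description. All arrays share the beta-actin denominator and the array level among their probes. For Bcl2 they were Gadd45a, induced by DNA damage (r = 0.90, 13 arrays), Mcl1 (r = 0.90, 11 arrays) and Bik, a BH3-only killer (r = 0.89, 13 arrays), against a median of 0.41 over 36 probes. Without young replicates 1 and 2 Gadd45a fell to 0.33, so that likeness rested on these arrays, while Mcl1 stood at 0.84 and Bik at 0.75. Mcl1 was most like Bik (0.92), Bcl2 (0.90) and Casp2 (0.88), against a median of 0.65. With arrays centred on the 15 probes, the likest to Mcl1 were Tnfrsf11a (0.57), Nol3 (0.50) and Tnfsf14 (0.28) instead, and those likest to Bcl2 were Gadd45a (0.70), Dffa (0.62) and Bcl2a1d (0.58). Bcl2, Gadd45a, Dffa and Tnfrsf11a are themselves among the 15 probes used for the centring. Bcl2a1d was most like Bcl2 (0.85), the nuclease inhibitor Dffa (0.80) and Casp2 (0.80). With that centring Bcl2a1d and Bcl2 had 0.58 over 11 arrays and 0.79 over the 10 left without young replicates 1 and 2, and Gadd45a and Bcl2 had -0.26 without those arrays. Bcl2l10 was most like Pycard, an adaptor of inflammatory caspases (0.82, and 0.86 with that centring, 10 arrays). As deposited, no probe of the 18 compared exceeded 0.55 with Bcl2l2.

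The pro-apoptotic relatives, which the members hold in check, were represented by 8 of the 14 genes listed, and limma called 0 of the 8. In the same fit 4 were higher and 4 lower on aged arrays, with a median log2 difference of -0.07. On the 15-probe scale 1 was higher and 7 lower (median -0.78), and with blanks at 0.01 6 were higher and 2 lower (median 0.52). As deposited, the killers Bik and Bid had 0.78 and 0.64, and the effectors Bok and Bak1 0.39 and 0.05. Bnip3, Hrk, Bcl2l11 (the Bim gene) and Bad had -0.20, -0.42, -0.51 and -0.96. Bik was the 1 gene of this list measured on all 13 arrays. The log2 ratio of Bcl2 to Bik averaged -0.05 ± 0.37 on aged arrays (SD, n = 6) and -0.44 ± 0.83 on young arrays (SD, n = 7). The difference of 0.38 did not pass (exact permutation p = 0.326, adjusted p = 0.607). The 2 lowest ratios, -1.05 and -1.75, were on young replicates 1 and 2, the arrays picked out for their low Bcl2 ratios. Of the 6 genes listed for the apoptosome, the complex formed once mitochondria open, 3 were on the array and 2 were tested, with 0 called. Casp9, its initiator caspase, had a log2 difference of 1.61 and Apaf1, its scaffold, -0.25 (adjusted p = 0.228 and 0.958 by limma).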

How the data were processed

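The authors' deposited table holds, per array and probe, a linear ratio; that the ratio is to beta-actin was read from the values, since the 2 Actb spots average 1 on each array. Ratios are rounded to 0.01 and run from 0.01 to 4.51, and 426 of 1248 cells of the 96 gene probes (34.1%) are blank. The scanner, the software and any background correction are not named in the labels. Probe names came from the platform annotation (87 named and 9 unnamed gene probes). Signal over background is unknown, and the number of arrays limits precision.

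Log2 ratios of probes with at least 3 values in each group were fitted with limma 3.58.1 in R 4.3.3 (age as the only factor, two-sided, blanks missing, no pseudocount), with Benjamini-Hochberg adjustment over all 70 and a threshold of 0.05. Spots of reference genes stayed out. Single values used exact permutation tests that enumerate every split, detection Fisher's exact test (scipy 1.17.1), each adjusted over all probes tested. Steps were tested on simulated data. Members, lists and the rule for named genes (all 6 members, the pro-apoptotic and apoptosome lists, and the 3 most alike probes of each member with at least 10 values) were chosen with earlier results of these data known. Alternatives covered centring, scaling, blanks, a pseudocount of 0.02, filters, tests, a replicate block and leaving out arrays.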

Additional observations from a re-analysis of the deposited data

How the results depend on the processing

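No member passed under any of the 28 alternatives to the main fit (limma in all but the exact permutation test), and none passed the tests of detection, spread or ratio to Bcl2 under theirs. With so few arrays, the detection test could call no probe alone after adjustment. The exact permutation tests could call no member with a blank alone. Of all probes, 1 was called as deposited and 2 with linear values. None (0) was called with centring on the reference genes, centring on the 15 probes or blanks at 0.01. The count was also 0 with only probes measured everywhere, the exact permutation test or the replicate block. Leaving out 1 array gave 0 to 1. The exact permutation test could not have called Tnf alone, since 6 against 6 values give too few splits to pass after adjustment. Differences of members turned sign as follows. Bcl2l2 turned to -0.17 (reference centring), -0.47 (15 probes), -0.031 (pseudocount 0.02) and, as a linear ratio, -0.011, and ranged from -0.79 to 0.68 with 1 array left out. Mcl1 turned to -0.22 (15 probes). Bcl2a1d turned to -0.35 (15 probes), -0.16 (quantile normalization) and -0.16 (without young replicates 1 and 2 together), and ranged from -0.16 to 0.60 with 1 array left out. Bcl2l10 turned to 0.63 (blanks at 0.01). The log2 ratio of SDs, aged over young, turned for Mcl1 to 0.26, for Bcl2a1d to 0.39 and for Bcl2l10 to 0.48 with centring on the 15 probes, for Bcl2l10 to 0.17 with reference centring (added after seeing the data), and without young replicates 1 and 2 to 0.11 for Bcl2a1d and 1.13 for Bcl2l10. With 1 array left out it ranged from -0.67 to 0.11 (Bcl2a1d), -0.72 to 1.13 (Bcl2l10) and -0.88 to 0.62 (Bcl2l2). Bcl2 against Bcl2l2 turned to -0.16 without both low arrays (added after seeing the data) and ranged from -0.16 to 1.90 with 1 array left out. The causes were not tested. The labels give same-numbered arrays only a number in common, and 3 of 6 pairs had a correlation of deviations above 0.1 (-0.20 to 0.36), and 6 of 12 arrays correlated best with their own number. The replicate block, which leaves out young replicate 7, gave Bcl2 1.48 (95% interval 0.37 to 2.60, adjusted p = 0.135 by limma) and Mcl1 0.92 (95% interval 0.01 to 1.83, adjusted p = 0.246 by limma), and called 0 of 61 probes. Ratios near the step of 0.01 limit Bcl2l1 and Bcl2l2 most.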
